A study of Homo sapiens with 8 samples.

Results

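BOKU is an established cervical cancer cell line, and the arrays described here measured its mRNA 72 h after siRNA was introduced, either a control (siCtrl) or one directed at IGF2R (siIGF2R). The BOKU arrays were taken by the cell line that the labels give, and they are 4 of the 8 arrays of the series, 2 for each siRNA. The other 4 arrays carry SKG-I, a second cervical cancer line treated in the same way. Cells of every group were kept in medium with serum and lipofected with DharmaFECT, at a final siRNA concentration of 10 nM by the methods. Both arrays of a group carried the same total RNA, so each siRNA is represented in BOKU by 1 RNA sample of 1 transfected culture. The arrays of a group therefore show technical spread only, no p value is given, and the effect of the siRNA cannot be told apart from a difference between the transfected cultures. Which of the study's siRNAs against IGF2R was put on the arrays is not given in the sources used here.

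IGF2R encodes the cation-independent mannose 6-phosphate receptor, a large membrane protein that cycles between the trans-Golgi network, endosomes and the plasma membrane. It picks up newly made lysosomal enzymes by their mannose 6-phosphate tag in the Golgi and delivers them to endosomes, and at the cell surface it binds insulin-like growth factor 2 and takes it in for degradation. The receptor travels in clathrin-coated vesicles, which adaptor complexes load, and is brought back from endosomes by retromer.

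Each array gave 1 signal per probe set, an intensity on a linear scale. Analysis was limited to probe sets that reached 500 on 1 or more of the 4 BOKU arrays, 14139 of 54675 (25.9%), and they covered 7882 genes. For each gene the brightest probe set, by its mean over the arrays, stood for the gene. A difference is the mean log2 signal of the siIGF2R arrays minus that of the siCtrl arrays, and a gene was called higher or lower where this was 1 or more in size (2-fold) and both siIGF2R arrays lay on the same side of both siCtrl arrays. The spread between duplicate arrays, as a standard deviation, was 0.22 with siCtrl and 0.21 with siIGF2R on the log2 scale, which gives a difference between means a technical standard error of 0.154. Pearson's r across probe sets was 0.99 between duplicates and 0.893 to 0.903 between arrays of different siRNAs. Ratios of 3′ to 5′ control probe sets were 1.2 to 1.23 for actin and 0.925 to 0.988 for GAPDH, so that no array stood apart in RNA quality.

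Of the measured probe sets, 924 were called higher with siIGF2R (6.54% of those tested) and 700 lower (4.95%). By gene, 547 were higher (6.94%) and 395 lower (5.01%), while the median difference of all genes was 0.01. A 4-fold difference was reached by 65 of the higher and 43 of the lower genes. Scaled to equal array medians instead of equal trimmed means, the median of all genes moved to −0.0952 and the calls to 437 genes higher and 500 lower, so list medians are read against the median of all genes and those near 0 carry no direction. Around the threshold, 245 genes lay between 2-fold and 2.2-fold and 364 between 1.8-fold and 2-fold. Of the 325 called genes with more than 1 measured probe set, 312 had all of them on the same side of 0. The plot of siCtrl against siIGF2R signals shows where the called genes lie.

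**Figure D1:**
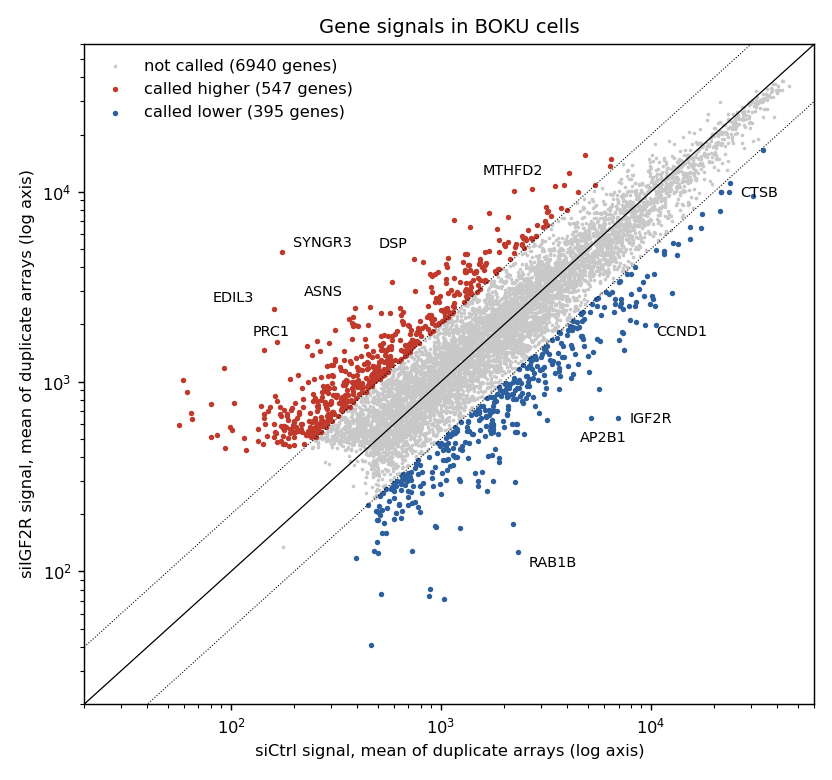
Each point is a gene measured in BOKU, at its mean siCtrl signal (x axis) and its mean siIGF2R signal (y axis), both means of duplicate arrays on log axes. The solid line marks equal signals and the dotted lines a 2-fold difference; 547 genes in red were called higher and 395 in blue lower, with IGF2R at 6993 and 643.

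IGF2R mRNA itself fell 10.9-fold, and both of its measured probe sets showed this, with differences of −3.44 and −3.26. The signals of the brighter probe set were 7288 and 6710.5 with siCtrl and 641 and 645 with siIGF2R, and those of the other fell from 3672 and 3874 to 361 and 429.5. The smaller mannose 6-phosphate receptor, M6PR, which also carries tagged enzymes, had 2994 and 2912 with siCtrl and 2033 and 1951 with siIGF2R, a difference of −0.57 that was not called. None of the 21 measured genes of mannose 6-phosphate tagging and sorting was called, and their median was 0.06. Within that list GNPTAB, a subunit of the enzyme that makes the tag, differed by 0.24 and PLIN3, a protein that binds the tails of these receptors, by −0.90.

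In the insulin-like growth factor system, the receptor adaptors IRS1 and IRS2 were called higher. IRS2 had signals of 799 and 931 with siCtrl and 2291 and 2716 with siIGF2R and a difference of 1.53, and IRS1 a difference of 1.10. The signaling receptor IGF1R, to which these adaptors bind, was at 4357 and 3892 with siCtrl and 3817 and 3278 with siIGF2R and differed by −0.22, within 2-fold, while its other measured probe set was past 2-fold lower, at −1.39. IGFBP3, a carrier of the growth factors in the extracellular space, and GRB10, an adaptor that dampens these receptors, stood just under the threshold with 0.97 and 0.97 and were not called. The mRNA-binding protein IGF2BP1 was called lower, from 412 and 522 to 51.9 and 32.1, while its relatives IGF2BP2 and IGF2BP3 differed by −0.48 and −0.66. The list had 13 measured genes, 2 higher and 2 lower with IGF2R itself, and a median of 0.11. IGF1, IGF2 and INSR did not reach the filter on any BOKU array.

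Among 12 measured cathepsins and cystatins, the lysosomal protease CTSB alone was called, with signals of 22540.3 and 24989 with siCtrl and 11572 and 10717 with siIGF2R and a difference of −1.09. The aspartic protease CTSD differed by −0.55, the cysteine protease CTSL by −0.46 and CTSC, which activates other proteases, by −0.41, each within 2-fold. CTSH and CTSZ pointed the other way, with 0.63 and 0.64, and were not called either. The list had a median of −0.13 beside 0.01 for all genes.

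Ranked after a floor of 100 was set on every signal, the largest rise belonged to SYNGR3, a protein of synaptic vesicles. Its signals were 175 and 177 with siCtrl and 4212 and 5454 with siIGF2R, a difference of 4.77. The same probe set differed by 0.46 in SKG-I. EDIL3, a secreted integrin ligand, rose from 196 and 132 to 2685 and 2177, and PXYLP1, a phosphatase of the glycosaminoglycan linker, from 89.8 and 95.0 to 1257 and 1103. CDKN3, a phosphatase that acts on cyclin-dependent kinases, went from 165 and 127 to 1449.5 and 1475. All 4 genes were dim on the siCtrl arrays, so the sizes of these rises rest on low signals.

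DSP and CD24 were brighter genes among the 20 largest rises. The desmosome protein DSP, which anchors intermediate filaments at cell junctions, rose 5.95-fold, from 711 and 783 to 4327 and 4550.1. CD24, a surface glycoprotein of epithelial and immune cells, rose from 1184 and 1119 to 7158 and 7075. DSP and CD24 differed by −0.05 and 0.07 in SKG-I. The cytokine receptor subunit IL10RB (2.58) and the adhesion molecule NEGR1 (3.28) were also among the 20, NEGR1 from a mean siCtrl signal of 166. Near or below the floor with siCtrl were the basement membrane protein NID1, the exocytosis SNARE SNAP25, the kinesin heavy chain KIF5C and ZNRF3, a ubiquitin ligase that removes Frizzled receptors, with mean signals of 65.1, 103, 64.8 and 56.5. With the floor their differences were 2.66, 2.72, 2.78 and 2.56. INHBE, a subunit of activin E, rose from 59.8 and 58.8 to 1024 and 1003. MFSD6 (3.84), the mitochondrial topoisomerase TOP1MT (3.25), FAM241A (2.67), UBXN2B (2.56), the helicase DHX40 (2.52), PRC1 and ASNS completed the 20, the last of which are described with their groups. MFSD6 and TOP1MT were also below the floor with siCtrl, at means of 61.5 and 80.5, and differed by 3.14 and 2.94 with the floor. In SKG-I, INHBE (0.56), KIF5C (−0.05), PRC1 (0.96) and ASNS (−0.04) stayed within 2-fold, as SYNGR3, DSP and CD24 did. NID1 differed by −3.25 there, at very low signals. The rest of the 20 were past 2-fold higher in SKG-I too, among them PXYLP1 (2.67), CDKN3 (1.43) and IL10RB (2.60). Of these, EDIL3 and FAM241A were dim in SKG-I.

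The largest fall in the same ranking was that of RAB1B, a small GTPase of transport from the endoplasmic reticulum to the Golgi. RAB1B signals were 2348 and 2304 with siCtrl and 109 and 146 with siIGF2R, an 18.4-fold difference, while its close relative RAB1A stayed at 23434 and 25042 with siCtrl and 21386 and 25669.8 with siIGF2R. AP2B1, part of the AP-2 adaptor that loads clathrin-coated vesicles at the plasma membrane, fell from 5157 and 5184 to 803 and 512. MMP1, a secreted collagenase, went from 819 and 940.3 to 69.7 and 78.8. The bicarbonate transporter SLC4A4 went from 875 and 893 to 63.3 and 102 and the calcium-binding protein CALB2 from 1061 and 1015 to 66.1 and 78.1. TGM2, a protein cross-linking enzyme with high signals, fell from 10429 and 10609 to 2149 and 1849. The non-coding RNA LINC00520 (−3.62), CYP1B1 (−2.93), the lipopolysaccharide co-receptor LY96 (−2.86) and the sorting nexin SNX24 (−2.64) were also among the 20 largest falls. The others were OSBPL10 (−2.63), the pseudophosphatase STYX (−2.56), the endosomal chloride transporter CLCN5 (−2.49), ENOX2 (−2.46), CARD16 (−2.43), UHRF1, which maintains DNA methylation (−2.42), DRC9 (−2.77), the ribosome export adaptor NMD3 (−2.35), the transcription factor NFIX (−2.34) and IGF2R. DRC9 was below the floor with siIGF2R, at a mean of 75.9, and differed by −2.37 with the floor. In SKG-I, LINC00520 (−0.47), CALB2 (−0.37), MMP1 (−0.05), SNX24 (−0.97) and UHRF1 (−0.92) stayed within 2-fold. SLC4A4 (1.78) and TGM2 (1.98) had positive differences there, at dim signals. The rest of the 20 were past 2-fold lower in SKG-I too, among them RAB1B (−2.86), AP2B1 (−2.88) and CYP1B1 (−2.40). Of these, CLCN5, DRC9, NFIX, LY96 and CARD16 were dim in SKG-I, with mean siCtrl signals there of 366, 365, 275, 5.97 and 93.6.

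Of the 59 gene lists examined, genes of mitosis and G2/M had the highest median in BOKU, 1.10, followed by genes of the ATF4 and amino acid response with 0.54. At the low end stood the 9 measured genes of the aryl hydrocarbon receptor list with −0.82, then integrins and focal adhesion with −0.35 and the COG, GARP and TRAPP tethers with −0.34. The plot of the lists gives the calls and medians of those with 4 or more called genes. All list medians other than that of mitosis and G2/M and that of the aryl hydrocarbon receptor list lay between −0.35 and 0.54.

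**Figure D2:**
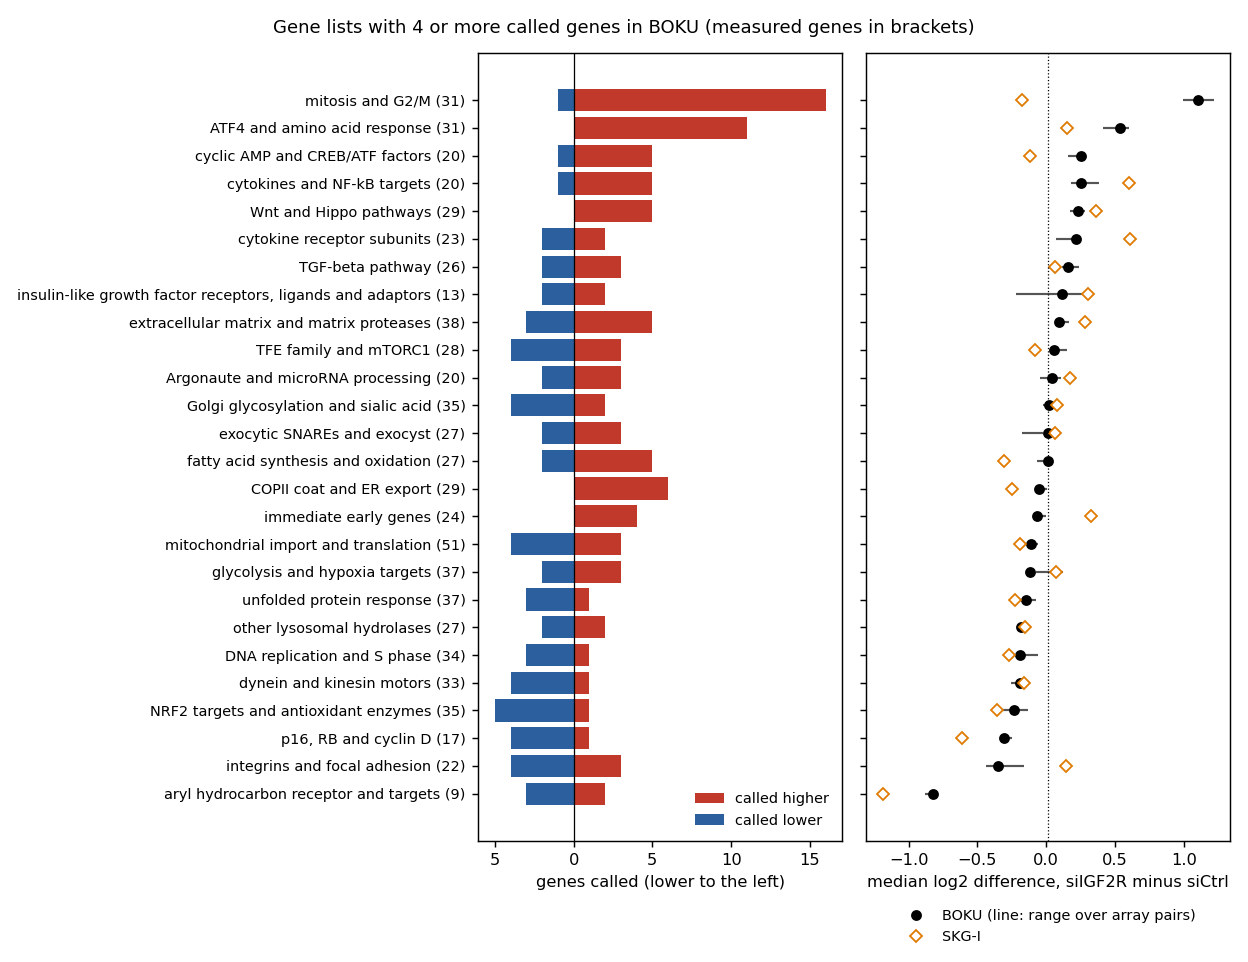
Gene lists with 4 or more called genes in BOKU, with measured genes counted in brackets. Bars on the left count genes called higher (red, to the right) and lower (blue, to the left), and on the right filled points give the median log2 difference in BOKU, lines its range over the 4 pairs of a siIGF2R and a siCtrl array, open diamonds the median in SKG-I and the dotted line the median of all genes. Mitosis and G2/M stands at 1.10 in BOKU and −0.17 in SKG-I.

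Cells entering mitosis build up a set of mRNAs for cyclin B and its kinase, the chromosome passenger complex, the spindle and the machinery of cytokinesis, and the transcription factor FOXM1 and the MuvB complex are known to drive them. In BOKU 16 of the 31 measured genes of this list were called higher with siIGF2R and 1 lower, against 6.94% and 5.01% of all genes. The cytokinesis protein PRC1, which bundles microtubules of the central spindle, had signals of 243 and 218 with siCtrl and 1519 and 1578 with siIGF2R, a 6.73-fold rise. CDK1, the kinase of mitotic entry, rose from 524 and 597 to 1399.6 and 2138, and its partner CCNB2, a B-type cyclin, from 533 and 526 to 1562 and 1643. For these genes the gap between the groups was wider, on the log2 scale, than that between duplicates. The rule by which genes were called nearly ensures this, so it adds no support.

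UBE2C, the ubiquitin-conjugating enzyme of the anaphase-promoting complex, rose from 449 and 419 to 1690.0 and 1669. The spindle protein HMMR went from 169 and 174 to 638 and 709 and BIRC5, a member of the chromosome passenger complex also known as survivin, from 307 and 297 to 1116 and 1058. FOXM1 went from 226 and 211 to 594 and 599.9. The other members called higher were the spindle motor KIF11 (1.89), DLGAP5 (1.81), the checkpoint kinases BUB1 (1.76) and BUB1B (1.26), topoisomerase TOP2A (1.56), ASPM (1.46), ANLN (1.33), KIF23 (1.28) and cyclin CCNA2 (1.10). A further 12 members had positive differences under 2-fold, among them the mitotic kinases AURKA (0.75) and AURKB (0.99), cyclin CCNB1 (0.92) and PTTG1 (0.83). MAPRE1, a microtubule end-binding protein made throughout the cell cycle, was the member called lower, from 6954 and 7086 to 1714 and 1617.

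Only 15 of the 31 measured members had a mean siCtrl signal of 500 or more, and a member that passed the filter through its siIGF2R signal alone had to be higher there. Among those 15, 4 were called higher (ANLN, CCNB2, CDK1 and TOP2A), 1 lower, and the median was 0.57, against −0.05 for all genes kept in this way, of which 3.48% were called higher. A filter that used no BOKU array, a signal of 500 or more on an SKG-I siCtrl array, was added after the values had been seen and kept 36 members. With it, 20 were called higher and 1 lower in BOKU and their median was 1.18, while 5.57% of all 7545 genes kept were higher. All 46 listed genes are on the array, and 43 of them had positive differences. In these bulk samples more cells in G2 and mitosis and more of these mRNAs per cell cannot be told apart. The study reports that cell cycle status was unchanged by IGF2R knockdown, measured by flow cytometry at a later time than these arrays. The cell cycle at the time of the arrays was not tested here.

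In SKG-I the same genes had a median of −0.17, with 0 of 31 called higher and 2 lower, beside 6.38% and 5.42% of the genes measured in both lines. The plot of mitotic genes by array shows that the BOKU siCtrl arrays were below the SKG-I siCtrl arrays for most members, as for CCNB2, with 533 and 526 in BOKU and 2854 and 2823 in SKG-I. PRC1 had the largest positive SKG-I difference of the list, 0.96. Whether the response differs between the lines was not tested, since each line gave 1 RNA sample per siRNA.

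**Figure D3:**
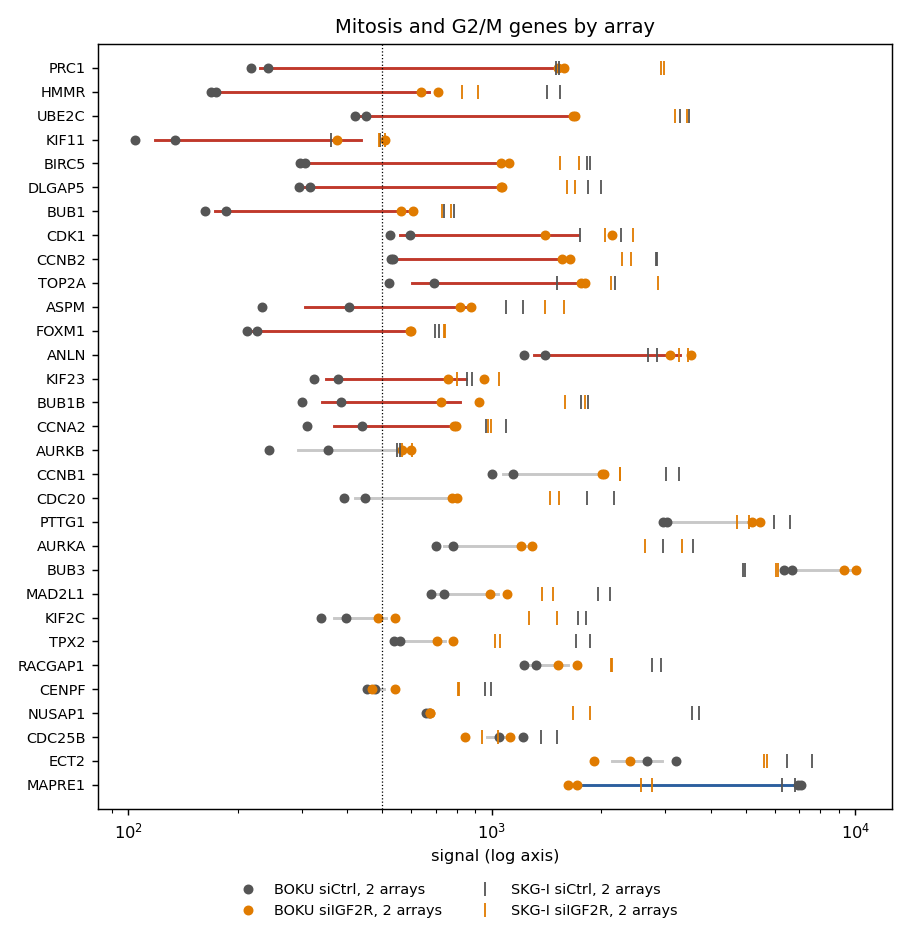
Signals of the 31 measured mitosis and G2/M genes (log axis), ordered by their difference in BOKU. Points are BOKU arrays and vertical ticks SKG-I arrays, grey for siCtrl and orange for siIGF2R, lines join the BOKU means (red, called higher; blue, called lower; light grey, not called), and the dotted line is the filter of 500; the siIGF2R points lie to the right in BOKU for 28 genes, PRC1 at the top with 1519 and 1578 against 243 and 218.

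Promoters of mitotic genes are known for a cell cycle homology region, TTTGAA, close to the start of transcription and for CCAAT boxes before it. Both were chosen after the values had been seen and were searched on both strands in the 250 bases before the first listed start of each gene, in RefSeq promoters of GRCh38.p14. Shown here are the windows of the 3 called members with the largest rises among those that the promoter table holds, in the direction of the gene, with both motifs in capitals wherever they occur. PRC1 lies at chr15:90994536-90994785 on the minus strand, HMMR at chr5:163460382-163460631 on the plus strand and KIF11 at chr10:92592880-92593129 on the plus strand.
PRC1: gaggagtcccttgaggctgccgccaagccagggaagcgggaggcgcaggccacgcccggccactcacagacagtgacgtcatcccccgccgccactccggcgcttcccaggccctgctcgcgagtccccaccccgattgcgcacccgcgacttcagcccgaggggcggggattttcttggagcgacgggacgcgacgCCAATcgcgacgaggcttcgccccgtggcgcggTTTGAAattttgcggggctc
HMMR: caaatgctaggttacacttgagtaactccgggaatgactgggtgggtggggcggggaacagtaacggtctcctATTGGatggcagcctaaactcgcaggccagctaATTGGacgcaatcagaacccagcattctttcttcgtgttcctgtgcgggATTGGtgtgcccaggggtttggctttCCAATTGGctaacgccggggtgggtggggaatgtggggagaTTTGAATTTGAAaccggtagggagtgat
KIF11: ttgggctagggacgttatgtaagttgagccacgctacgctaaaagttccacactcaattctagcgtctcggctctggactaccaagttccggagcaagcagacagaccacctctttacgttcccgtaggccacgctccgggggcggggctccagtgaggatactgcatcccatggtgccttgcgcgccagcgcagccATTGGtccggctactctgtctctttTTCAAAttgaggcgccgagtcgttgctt
TTTGAA begins 20 bases before the start in PRC1, 28 and 22 bases before it in HMMR and 28 bases before it, in reverse, in KIF11. Of the 13 called members with a window, 11 held TTTGAA and 11 held CCAAT on either strand. In all 38 members with a window these counts were 20 and 29. The motifs are short, and 13.6% and 33.0% of all 27305 windows of the table held them. Of the genes measured in BOKU, 8.27% and 36.1% did.

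Genes of the preceding steps of the cell cycle moved otherwise. CCND1, the D-type cyclin that opens the G1 phase, fell 4.74-fold, from 9473 and 9288 to 2092 and 1876. CDK6, the kinase it activates, fell from 9338 and 9843 to 3319 and 3901. TFDP1, the dimer partner of E2F factors, went from 4229.9 and 4192 to 1486 and 1506, although another of its probe sets differed by 0.33. With CCNY, 4 of 17 measured genes of p16, RB and cyclin D were called lower and 1, E2F5, higher, with a median of −0.30. Of all genes 5.01% were lower and 6.94% higher. CDKN2A, the p16 gene and a common marker of cervical cancer cells, was bright on all arrays at 14015 and 13948 with siCtrl and 10132 and 12346 with siIGF2R and was not called. CDK4 (−0.22), RB1 (0.25) and the inhibitor CDKN1A (0.20) also stayed within 2-fold.

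The DNA replication and S phase list had 1 of 34 measured genes called higher and 3 lower, beside 6.94% and 5.01% of all genes, with a median of −0.19. RRM2, a subunit of ribonucleotide reductase, was the one that rose, from 452 and 411 to 1199 and 1286. PARP2, a sensor of DNA breaks, and POLA2, a subunit of the polymerase that starts new strands, fell by 1.27 and 1.02 on the log2 scale, as did TFDP1. The replicative helicase subunits MCM2 to MCM7 differed between −0.89 (MCM5) and 0.54 (MCM6), and PCNA, the sliding clamp, was at 9541 and 8522 with siCtrl and 8139 and 8612 with siIGF2R. The median of p53 targets was −0.05, with SESN1 alone called of 30, and that of apoptosis regulators 0.02, with BIRC5 higher and the caspase CASP1 (−2.07) and the caspase inhibitor CFLAR (−1.19) lower of 28.

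ATF4 is a transcription factor whose translation rises when amino acids run short or the endoplasmic reticulum is stressed, and its targets make and import amino acids. Of 35 listed genes 34 are on the array and 31 were measured in BOKU. Of the 31 measured genes 11 were called higher and none lower, where 6.94% of all genes were higher. ASNS, which makes asparagine, rose 6.25-fold, from 417 and 362 to 2402 and 2458. TRIB3, a pseudokinase that feeds back on ATF4, rose from 362 and 399 to 2203 and 2160.1. PHGDH, the entry enzyme of serine synthesis, went from 147 and 154 to 772 and 636, and CHAC1, which degrades glutathione, from 311 and 349.9 to 992 and 1426. In each of these genes the gap between the groups was wider, on the log2 scale, than that between duplicates, which the rule of the calls again nearly ensures.

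MTHFD2, an enzyme of mitochondrial folate metabolism, was bright before and after and rose from 3558 and 3411 to 10989 and 10459.9. The other called members were the transcription factors JDP2 (2.05), CEBPG (1.12) and DDIT3, also called CHOP (1.01), the amino acid transporter SLC1A4 (1.41), CBS of the transsulfuration pathway (1.23) and the angiogenic factor VEGFA (1.38). ATF4 mRNA, at 7441 and 8232 with siCtrl and 10240.1 and 13295 with siIGF2R, differed by 0.58 and was not called. Other members were not higher. The serine synthesis genes PSAT1 (−0.07) and PSPH (−0.33), the transporters SLC7A5 (−0.11), SLC3A2 (−0.27) and SLC7A11 (−0.65) and the stress protein NUPR1 (−0.67) had negative differences under 2-fold.

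The list median of 0.54 ranged from 0.41 to 0.60 over the 4 pairs of arrays. Among the 24 members with a mean siCtrl signal of 500 or more, 4 were called higher and the median was 0.32. Of all genes kept in this way 3.48% were called higher, with a median of −0.05. The filter on the SKG-I siCtrl arrays kept 25 members, of which 7 were higher in BOKU, beside 5.57% of all genes it kept. SKG-I had a median of 0.15, with 6 of 28 called higher and 2 lower, beside 6.38% and 5.42% of the genes measured in both lines. ASNS and PHGDH differed by −0.04 and 0.04 there, from siCtrl signals of 2638 and 2760.3 for ASNS and 1131 and 1166 for PHGDH, which the BOKU siCtrl arrays did not reach. Related lists had few calls. The unfolded protein response had 1 of 37 genes higher, the stress sensor ERN1 (1.13), and 3 lower, among them DNAJB11, a chaperone of the endoplasmic reticulum, from 9591 and 10099 to 2452 and 2694. Of 18 aminoacyl-tRNA synthetases none was higher and the lysine enzyme KARS1 fell from 16332 and 18461 to 6088 and 6824.

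**Figure D4:**
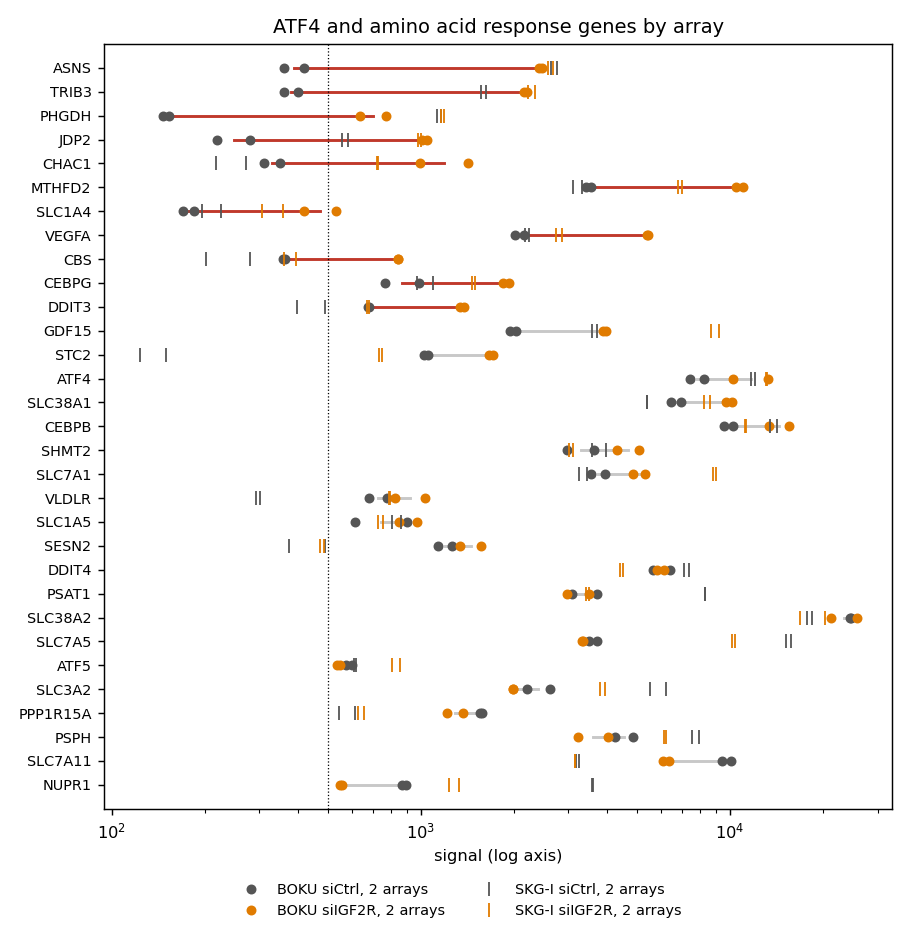
Signals of the 31 measured genes of the ATF4 and amino acid response (log axis), ordered by their difference in BOKU, with the same symbols as in the plot of mitotic genes. The 11 called genes at the top all moved to the right with siIGF2R, ASNS from 417 and 362 to 2402 and 2458, while the 10 genes at the bottom had negative differences.

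ATF4 binds with C/EBP partners to a composite element, TGATGNAA, which was also chosen after the values had been seen. It occurred on either strand in the 250 bases before the start of 2 of the 10 called members with a window, ASNS and CHAC1, in 2 of all 28 members with a window and in 3.19% of all windows. Of the genes measured in BOKU, 1.25% held it. The windows of these 2 members are shown with the element in capitals, ASNS at chr7:97872409-97872658 on the minus strand and CHAC1 at chr15:40953221-40953470 on the plus strand.
ASNS: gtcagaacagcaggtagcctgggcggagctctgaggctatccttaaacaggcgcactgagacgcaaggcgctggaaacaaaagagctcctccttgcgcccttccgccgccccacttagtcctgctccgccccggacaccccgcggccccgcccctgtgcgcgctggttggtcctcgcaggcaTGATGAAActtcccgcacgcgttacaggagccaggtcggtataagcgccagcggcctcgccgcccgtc
CHAC1: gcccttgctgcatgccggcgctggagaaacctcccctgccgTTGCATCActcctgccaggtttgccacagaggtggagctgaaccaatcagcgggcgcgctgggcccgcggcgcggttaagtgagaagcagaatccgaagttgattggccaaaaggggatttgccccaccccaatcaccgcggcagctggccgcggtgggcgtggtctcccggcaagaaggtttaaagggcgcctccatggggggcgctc
It begins 68 bases before the start in ASNS and lies in reverse 209 bases before it in CHAC1. That the others held no match says only that these letters are not in these windows.

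Among cyclic AMP and CREB/ATF factors 5 of 20 measured genes were called higher and 1 lower, beside 6.94% and 5.01% of all genes, with a median of 0.25. ATF3, a stress-induced repressor, rose from 723 and 597 to 1948 and 2079, CREM, an inducible modulator of cyclic AMP responses, from 988 and 1133 to 3145 and 3500.5 and SIK1, a kinase that restrains CREB coactivators, from 548 and 567 to 1471 and 1485. CREB5 rose as well (1.78), and PRKACB, a catalytic subunit of protein kinase A, fell (−1.73). The CREB site TGACGTCA was found in none of the 4 windows of called members and in 1.77% of all windows. Of the genes measured in BOKU, 3.27% held it. Of 24 measured immediate early genes 4 were higher, SRF (1.63), MAFF (1.49), SOCS3 (1.22) and ZFP36L2 (1.17), and none lower, with a median of −0.07. Of the 22 with a mean siCtrl signal of 500 or more, 2 were higher, beside 3.48% of all genes kept in this way.

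The coats, tethers and motors of the secretory pathway, the route on which IGF2R and its cargo travel, were called in both directions. In this and the following paragraphs, counts of calls stand beside 6.94% of all genes higher and 5.01% lower. A list with a share of calls near these shows no direction of its pathway. The COPII list, whose coat buds vesicles from the endoplasmic reticulum, had 6 of 29 genes higher and none lower, although its median was −0.05. SAR1B, the GTPase that starts the coat, rose from 1062 and 1098 to 4639 and 4281, and the cargo-binding subunit SEC24A from 749 and 761 to 3088 and 2893. SEC24B (1.24), SURF4 (1.18), CNIH4 (1.15) and BCAP29 (1.03) were the other called members. Their paralogs SAR1A (−0.14), SEC24C (−0.22) and SEC24D (−0.08) stayed within 2-fold, and one SEC24A probe set gave 0.79. SAR1B, CNIH4 and BCAP29 are among the genes that the study names from these arrays, so they are not independent evidence of a direction.

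Tethers that catch vesicles at the Golgi were lower in 3 of 22 genes and higher in none, and 19 of the 22 had negative differences. VPS54, a subunit of the GARP tether, fell from 2187 and 1998 to 658 and 781, COG5 of the COG complex from 1267 and 1333 to 467 and 497 and TRAPPC2 from 658 and 578 to 275 and 325. Of 27 genes of the COPI coat and ARF GTPases 2 were lower, the coat subunit ARCN1 (−1.67) and RER1, which returns escaped proteins to the endoplasmic reticulum (−1.52). Golgi SNAREs and golgins had 3 of 35 higher, GOLGA4 (1.34), NAPG (1.03) and ACBD3 (1.09), and none lower. VPS54, COG5, ARCN1, RER1, GOLGA4 and NAPG are also genes that the study names, and so are RAB1B, AP2B1, DYNC1I2, KIF3B and SCAMP1. The study's supplementary list of genes raised on these arrays also holds SNAP25, CREM, MSRB3, ALCAM, AGO4, LSM14A, ITPR1, PLCL2, CRISPLD2, CYP26B1 and SESN1. Their calls, given with their own lists, are therefore not independent evidence of a direction either.

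Among motors, 4 of 33 dynein and kinesin genes were lower and 1, KIF5C, higher. DYNC1I2, an intermediate chain of cytoplasmic dynein, fell from 13082 and 12039 to 2995 and 2836, and KIF3B, DYNLT3 and KIF1B had −1.62, −1.39 and −1.04. Endocytosis genes had AP2B1 and ITSN1 (−1.10) lower of 27 and none higher, RAB GTPases RAB1B and RAB21 (−1.21) lower of 34 and none higher. In the exocytic SNARE list SNAP25, STX2 (1.30) and SCAMP1 (1.91) rose, and VAMP4 (−1.31) and the calcium sensor SYT1 (−1.30) fell. Of its 23 members with a mean siCtrl signal of 500 or more, 1 was higher, beside 3.48% of all genes kept in this way. Further genes that the study names were called in BOKU, the fusion GTPase ATL3 (−1.51) and COMMD1 (−1.03) lower and the lipid flippase ATP9A (1.49) higher. Others were not, such as the complement inhibitor CD59 (−0.43), the GTPase ARF3 (−0.55), the SNARE SEC22B (−0.91) and the growth factor GAS6 (0.78). Retromer subunits themselves were not called, and of 28 genes of the retromer and sorting nexin list SNX10 (1.62) and SNX27 (1.23) rose and SNX24 fell.

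Lysosomal membrane proteins and proton pump subunits had negative differences in 25 of 29 genes, with a median of −0.33, but only TMEM192 passed 2-fold (−1.46). LAMP1, a main glycoprotein of the lysosomal membrane, was at 17559 and 19136 with siCtrl and 15481 and 18409 with siIGF2R. The site that TFE factors bind in lysosomal promoters, TCACGTGA, lay in 5 of the 25 windows of this list and in 0.89% of all windows, searched as described for the mitotic genes. The share among genes measured in BOKU was 2.09%, and the window of the member called lower did not hold it. Other lysosomal hydrolases had 2 of 27 higher, HYAL2 (1.16) and ARSB (1.11), and 2 lower, GM2A (−1.17) and the tripeptidase TPP1 (−1.03). TFE3, a transcription factor of lysosomal genes, fell from 6066 and 7074 to 2970.3 and 2950.1, and RRAGA, a GTPase that brings mTORC1 to lysosomes, from 12755 and 14176 to 5434 and 5179. In that list of 28 genes DEPTOR, an inhibitor of mTOR (−1.95), and the arginine sensor SLC38A9 (−1.60) were lower too, while FNIP2 (1.27), LAMTOR3 (1.21) and SESN1 (1.04) were higher. Of 33 autophagy core genes only EPG5 was called (−1.06), and of 19 mitophagy genes BNIP3L (−1.61) and MUL1 (−1.15), all lower.

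The aryl hydrocarbon receptor is a ligand-activated transcription factor that works with ARNT to induce enzymes of foreign compound metabolism, CYP1B1 among them. CYP1B1 fell 7.65-fold, from 2299.7 and 2199.8 to 300.1 and 288, and ARNT from 566 and 451 to 207 and 237. The receptor AHR was at 974 and 932 with siCtrl and 646 and 607 with siIGF2R, within 2-fold, as was NQO1 (−0.82), and TIPARP, another target, was just short of the threshold at 4237 and 4336 with siCtrl and 2145 and 2147 with siIGF2R. Enzymes and carriers of retinoic acid in the same list were called in both directions, with ALDH1A3, which makes it, down from 10386 and 10103 to 2725 and 2688 and CYP26B1, which breaks it down, and CRABP2, which binds it, up by 1.07 and 1.93. NRF2 targets and antioxidant enzymes had 5 of 35 genes lower, the reductase AKR1B10 from 1226 and 1226 to 294 and 301, SRXN1 (−1.41), MSRB2 (−1.17), TXN2 (−1.10) and OSGIN1 (−1.03), and MSRB3 (1.83) higher.

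Housekeeping complexes differed by small amounts. Proteasome genes had a median of −0.31 with 1 of 40 lower, oxidative phosphorylation −0.17 with 1 of 68 higher, and cytosolic ribosomal proteins −0.11 with 1 of 51 lower. These medians changed with the pair of arrays, from −0.36 to 0.18 for ribosomal proteins, so the last carries no direction. Mitochondrial import and translation had 3 of 51 higher, with the translocase subunit TIMM17B at 1.74, and 4 lower, with the ribosomal protein MRPS7 at −1.63. Glycolysis and hypoxia targets had 3 of 37 genes higher and 2 lower, fatty acid synthesis and oxidation 5 of 27 higher and 2 lower, with SLC2A1, the main glucose transporter, down from 1597 and 1925 to 387 and 431, the thioesterase ACOT13 down from 4068 and 4270.3 to 1023 and 1065 and PANK3, an enzyme of coenzyme A synthesis, up from 1504 and 1218 to 3991 and 4205. With a mean siCtrl signal of 500 or more, 1 of 32 and 1 of 22 members of these lists were higher. Of all genes kept in this way 3.48% were higher. HMGCS1, an early enzyme of cholesterol synthesis, and INSIG1, which restrains it, fell by 1.39 and 1.17, the 2 calls among 21 genes. In Golgi glycosylation 2 of 35 genes were higher and 4 lower, among them CMAS, which activates sialic acid, from 1404 and 1490.1 to 322 and 334 and MGAT5, which branches N-glycans, from 2623 and 2970.4 to 675 and 816. Both are genes that the study names.

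Among cytokine, growth factor and interferon genes calls went both ways, beside 6.94% of all genes higher and 5.01% lower. Of 20 cytokines and NF-kB targets 5 were higher, NFKBIZ (1.56), the neutrophil attractant CXCL8 (1.21), ICAM1 (1.08) and IL6 (1.03) among them, and IL1B, an inflammatory cytokine, fell from 3328 and 3413 to 1153 and 1321. The TGF-beta list had 3 of 26 genes higher and 2 lower, and its receptors parted, with TGFBR1 up from 1711 and 1687 to 7837 and 7565 and TGFBR2 down from 20606 and 22693 to 9207 and 10665, while the ligands INHBA (1.42) and TGFB2 (1.17) rose. EGFR, the epidermal growth factor receptor, fell from 4109.6 and 4073 to 2003 and 1902, and DUSP5, a phosphatase induced by ERK signaling, rose from 849 and 797 to 4362 and 4137. Interferon response genes had none of 31 higher and 3 lower, IFIT1 (−1.61), IFIT2 (−1.41) and TRIM22 (−1.14), and a median of 0.17. In SKG-I 14 of 26 were higher, beside 6.38% of the genes measured in both lines, and the median was 1.38. Antigen presentation had TAP1 (1.06) and its activator NLRC5 (441 and 439 with siCtrl, 911 and 850.2 with siIGF2R) higher of 21.

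Of 9 squamous and 7 glandular epithelial markers 4 and 5 were measured in BOKU. The cells carried simple epithelial keratins, with KRT18 at 14728 and 15766 and KRT19 at 17112 and 18705 on the siCtrl arrays, and the Müllerian factor PAX8 at 5648 and 5474. The basal keratins KRT5 and KRT14, the desmoglein DSG3 and the adhesion proteins CDH1 and EPCAM were at background, with 50.8 as the highest of their signals on the 4 arrays. Of 7 fibroblast, 5 endothelial and 5 leukocyte markers only the collagen chain COL1A1 reached 500, and the summed level of the fibroblast markers was 1546 to 1576 with siCtrl and 1392 to 1688 with siIGF2R. Sums were 586 to 596 and 499 to 591 for the endothelial markers and 209 to 396 and 234 to 293 for the leukocyte markers, so that for each of these classes the groups overlapped. Of 6 measured keratins 1 was called, with 3 positive and 3 negative differences, and of 5 measured genes of the cornified envelope 1. The keratin KRT80 rose from 544 and 492 to 2154 and 2476, the protease inhibitor PI3 from 159.7 and 172 to 802 and 778 and the mucin MUC1 from 303 and 397 to 953 and 971. PI3 and MUC1 reached 500 with siIGF2R alone. The glandular keratins went both ways, KRT8 and KRT18 by −0.31 and −0.57 and KRT7 by 0.94, each under 2-fold. DSP was the one of 14 desmosome and junction genes that was called. TAGLN, an actin-binding protein, rose from 2126 and 2318 to 8857 and 11393, ALCAM from 4112 and 4035 to 11412 and 13925 and the collagen cross-linker LOX from 2748 and 2975 to 6373 and 7017, the 3 calls among 23 genes of epithelial-mesenchymal transition.

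Integrins and focal adhesion had 4 of 22 genes lower and 3 higher, beside 5.01% and 6.94% of all genes. The fibronectin receptor subunit ITGA5 fell from 3463 and 3119.6 to 1317 and 1283, ITGB3 from 3947 and 4112 to 1913 and 1845, TNS3 by 1.35 and ITGB1BP1 by 1.62 on the log2 scale. The integrin ligands EDIL3 and MFGE8 (1.24) and the focal adhesion protein ZYX (1.37) rose. Matrix genes had 5 of 38 higher, with NID1, CRISPLD2 (2.29), FBN2 (1.59) and LOXL1 (1.56), and 3 lower, MMP1, the collagen chain COL4A6 (−1.49) and the protease MMP7 (−1.21). With a mean siCtrl signal of 500 or more, 1 of 20 integrin genes and 1 of 33 matrix genes were higher, beside 3.48% of all genes kept in this way. AGO4, a small RNA binding protein, rose from 255 and 274 to 1613 and 1310.2, TNRC6A and LSM14A by 1.56 and 1.78, while AGO1 (−1.01) and CNOT1 (−1.07) fell, of 20 genes of microRNA processing.

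The SKG-I arrays share no sample with the BOKU arrays and give each gene's difference in a second line. Of the BOKU genes called higher, 426 were measured in SKG-I, with a median difference of 0.87 there, and 183 of them (43.0%) were called higher there too. Of the lower genes, 304 were measured in SKG-I, with a median difference of −1.03 there, and 159 of them (52.3%) were called lower there too. Of all 6973 genes measured in both lines, 6.38% were called higher and 5.42% lower in SKG-I. Seen from SKG-I, 41.1% of its higher and 42.1% of its lower genes were called the same way in BOKU. Within 2-fold in SKG-I were 239 of the BOKU higher genes, SYNGR3, ASNS, CD24, DSP and the 16 mitotic genes among them, and 141 of the lower genes, such as CCND1 (−0.81) and UHRF1 (−0.92). Only 8 genes were called in opposite directions, and the plot of both lines shows them apart from the diagonal.

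**Figure D5:**
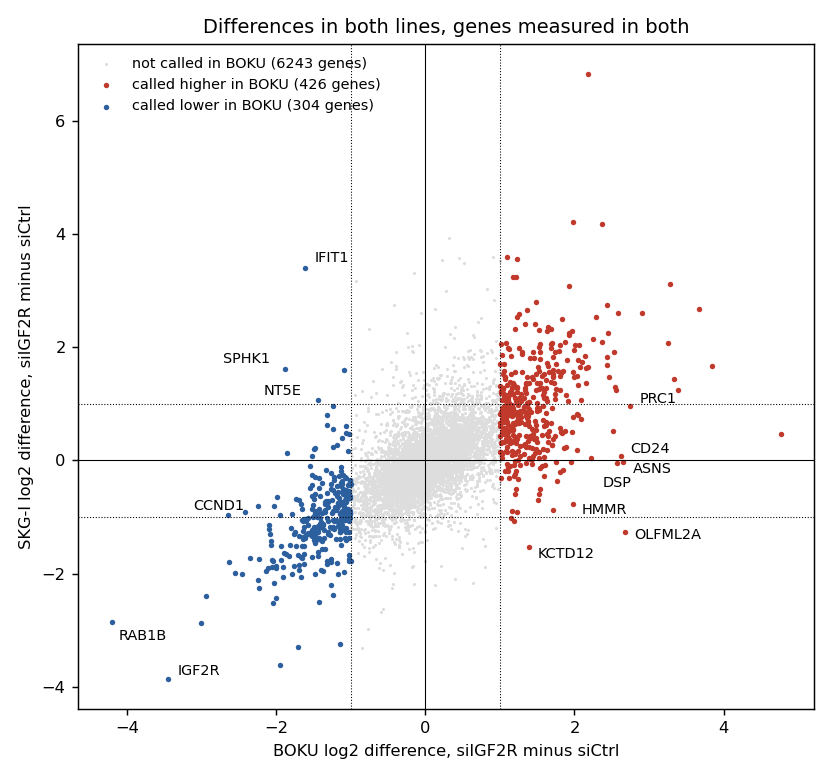
Log2 difference between siIGF2R and siCtrl in BOKU (x axis) and SKG-I (y axis) for the 6973 genes measured in both lines, 1 point a gene, with dotted lines at 2-fold. Genes called higher in BOKU are red and lower ones blue; most lie on the same side in SKG-I, ASNS and DSP lie near 0 there, and IFIT1 and SPHK1 lie on the opposite side.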

How the data were processed

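Total RNA of BOKU and SKG-I cells, taken 72 h after lipofection, was labeled by the authors with a 3′ IVT Express kit from 100 ng and hybridized to U133 Plus 2.0 arrays of the human genome (GeneChip), with 1 RNA and 2 arrays per group. The authors scanned the arrays on a GeneChip Scanner 3000 and deposited MAS5 intensity values on a linear scale. The 2% trimmed mean of the deposited intensities was about 500 on each array, whereas the methods state a mean of 1000. Scaled to equal means, 609 genes were called higher and 355 lower.

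The deposited intensities were used as they are. Log2 signals of duplicates were averaged, the 62 control probe sets were dropped, and those of the others that reached 500 on any of the 4 BOKU arrays were kept. Gene symbols came from the platform annotation, checked against RefSeq (GRCh38.p14) by gene ID, and 0 symbols were updated. Of the kept probe sets, 673 with several genes and 933 with none entered no gene count. With 1 RNA per group, the duplicates measure technical error only, and the number of arrays limits the precision. Calls were differences of 2-fold or more with no overlap between groups.

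Named were the target and the genes that the study names, the 20 largest rises and the 20 largest falls after a floor of 100, up to 4 called members of each list in each direction with members whose role a list turns on, genes called in opposite directions in both lines (up to 12), and genes whose probe sets disagreed. The members and lists were chosen with earlier results of these data known. Promoter windows were read from RefSeq. The cell cycle homology region, the CCAAT box and the element of C/EBP and ATF factors, and the filter on SKG-I siCtrl arrays were chosen after the values had been seen.

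Alternatives covered the filter, floor, scaling, fold threshold, choice of probe set, the methods' t-test, limma over the arrays and leaving out each array. Python 3.11.15, numpy 2.4.6, pandas 2.3.3, scipy 1.17.1, R 4.3.3 and limma 3.58.1 were used. The code of the calls was run on simulated arrays with planted changes past 2-fold and the same technical spread for every probe set. That run does not bear on calls near the threshold, on dim probe sets or on differences between cultures.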

Additional observations from a re-analysis of the deposited data

Results flagged for a closer look

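Of the genes measured in both lines, 8 were called in opposite directions, with all BOKU siIGF2R arrays on one side of their siCtrl arrays and all SKG-I siIGF2R arrays on the other. The difference between the lines was not tested for any of them, since each group is 1 RNA sample.

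IFIT1, an interferon-induced protein that binds foreign RNA, differed by −1.61 in BOKU and by 3.40 in SKG-I. Its signals were 1049 and 973 with siCtrl and 361 and 303 with siIGF2R in BOKU, and in SKG-I 447 and 585 with siCtrl and 5365 and 5462 with siIGF2R. SPHK1, which makes sphingosine 1-phosphate, differed by −1.89 in BOKU, from 4918 and 5158 to 1404 and 1322, and by 1.61 in SKG-I. NT5E, the ecto-enzyme CD73 that forms adenosine, differed by −1.44, from 15575 and 15112 to 5616 and 5697, and by 1.06, although another of its probe sets gave −0.11 in BOKU. PRAG1, a pseudokinase, differed by −1.09 and 1.59. In these 4 genes the BOKU siCtrl signals were above those of SKG-I.

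The other 4 were higher in BOKU and lower in SKG-I. The extracellular protein OLFML2A differed by 2.68 in BOKU, from 50.5 and 127 to 472 and 558, and by −1.26 in SKG-I. KCTD12, an auxiliary subunit of GABA-B receptors, differed by 1.39 and −1.53, the tight junction scaffold PATJ by 1.19 and −1.06, and DENND2B, an exchange factor for RAB GTPases, by 1.15 and −1.02. Their BOKU siCtrl signals were below those of SKG-I.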

How the results depend on the processing

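No paired analysis was possible because the duplicate numbers are repeat arrays of 1 RNA and no test between samples was run. The fold threshold and the filter moved the counts most. Without a filter on low signal, 5345 probe sets were higher and 4549 lower (genes 1839 and 1557), the spread between duplicates was 1.18 on the log2 scale and 26 mitosis and G2/M genes were higher. With 500 required on all 4 BOKU arrays, counts were 345 and 395 probe sets, 229 and 248 genes, 203 genes called alike in SKG-I, 4 mitosis genes and 4 genes of the ATF4 list. At 1.5-fold they were 2217 and 1845 probe sets, 1258 and 1024 genes and 1020 genes alike in SKG-I, and at 3-fold 263 and 199, 163 and 118, and 86, with 9 mitosis and 6 ATF4 genes. Adding the methods' t-test after adjustment, which takes the duplicates as replicates, left 384 and 332 probe sets, 242 and 191 genes, 8 mitosis genes and 7 ATF4 genes. The SKG-I siCtrl filter left 7 ATF4 genes, and the spread was 0.349 with 500 on any of the 8 arrays. Leaving out each array gave 922 to 975 and 707 to 738 probe sets, 547 to 569 and 399 to 413 genes, 336 to 354 alike in SKG-I, 16 to 17 mitosis genes and 10 to 11 ATF4 genes. The spread, taken between the siCtrl duplicates, is 0.223 without either siIGF2R array by construction. For these counts, the other alternatives (64 added, floor, quantile normalization, median scaling, limma, choice of probe set) stayed within 1.5 times. Of 4276 values of the 238 named genes under alternatives, 4029 moved by less than the technical spread, 244 by more and 3 reversed, RPS24 to 0.0846 and TFPI2 to 1.08 without shared probe sets (suffix _s_at or _x_at) and RC3H2 to −1.25 with the probe set of largest difference. Dim probe sets varied more, with a standard deviation between siCtrl duplicates of 0.331 under a mean signal of 500 and 0.156 among the brightest.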

Other observations

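Calls in further gene lists in BOKU stand beside 6.94% of all genes higher and 5.01% lower. Of 29 measured genes of the Wnt and Hippo pathways 5 were higher and none lower, ZNRF3 (3.39), the Hippo kinases LATS1 (1.31) and STK3 (1.05), the receptor FZD5 (1.07) and the ligand WNT5B (1.07), with a median of 0.23. Of the 25 members with a mean siCtrl signal of 500 or more, 2 were higher, with a median of 0.04. Of all genes kept in this way 3.48% were higher. Calcium release and phospholipase C had 3 of 21 higher and none lower, the release channels ITPR1 (1.06) and ITPR3 (1.15) and PLCL2 (1.18), with a median of −0.10. Of its 18 members with a mean siCtrl signal of 500 or more, 1 was higher, again beside 3.48%, with a median of −0.20. Ribosome biogenesis had 3 of 38 lower and none higher, NMD3, the exosome cofactor C1D from 2349 and 2140.4 to 594 and 491 and GTF3C6 from 7802 and 6929 to 1877 and 1729. Its median was 0.01, and 19 of the 38 differences were positive. Among cytosolic chaperones the kinase co-chaperone CDC37 fell from 3113 and 3134 to 960.1 and 1018 and HSPB8 by 1.44 on the log2 scale, of 32 genes. In fatty acid metabolism ELOVL7, an elongase, rose from 151 and 155 to 710.5 and 757, and ACAA1, a peroxisomal thiolase, fell from 1277 and 1421 to 325 and 483. The squamous lineage list had one nuclear factor I gene on each side, NFIB higher (1.53) and NFIX lower (−2.34), of 9 measured genes. No gene of complement was called, of 10 measured.

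For 4 genes, measured probe sets were called in both directions, so that the gene's direction depended on the probe set. TFPI2, an inhibitor of serine proteases, went from 12276 and 13152 to 5141 and 5630.3 with the brighter probe set and from 648 and 636 to 1434 and 1286 with the other. PHLDA1, a growth factor-induced protein, had 6 measured probe sets with differences from −1.13 to 1.36. RC3H2, an mRNA-binding ubiquitin ligase, had 4 from −1.25 to 1.23, and DCUN1D1, a neddylation factor, 4 from −1.005 to 1.14. Which transcripts these probe sets match was not analysed here.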
